A study of Homo sapiens with 6 samples.

Results

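The proteasome genes of CAL27 cells, a human tongue squamous cell carcinoma line, are described here after metformin and after its PBS vehicle. The genes were the protein-coding genes whose GENCODE 29 symbol begins with PSMA to PSMG followed by a digit. The rule found 49 of the 19788 protein-coding genes and of the 58243 gene identifiers in the files. Of these, 47 averaged at least 1 FPKM over the 6 libraries and entered the test. FPKM is a level of sequenced fragments that is scaled to transcript length and to sequencing depth, so that levels can be set side by side between genes. The other two were PSMA8, a testis form of an alpha subunit, listed at 0 in every library, and PSMB11, the thymus-specific beta subunit, listed at 0 in 5 libraries and at 0.107 FPKM in PBS replicate 3.

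Messenger RNA was sequenced in 3 libraries of cells given 30 mM metformin for 48 h and in 3 libraries of cells given PBS for the same time. Both groups were the same line, grown in high-glucose medium with serum. No label tells whether the 3 libraries of a group came from separate cultures, and the p-values therefore rest on a spread among libraries that may be technical only. Depth, estimated from the value that a single fragment takes in genes with a single annotated transcript, lay between 7940000 and 8560000 fragments in metformin libraries and between 7810000 and 8820000 in PBS libraries. All 6 squamous epithelial markers were above 1 FPKM in every library, and their summed level was 401.1 to 422.0 FPKM with metformin and 755.8 to 780.9 FPKM with PBS. Most of that difference was the keratin KRT5, at a mean of 52.4 FPKM with metformin and 355.0 FPKM with PBS; KRT6A, KRT17 and TP63 were also called lower, while CDH1 and EPCAM were called higher, with log2 changes of 0.24 and 0.34. Among the markers of other cell types, 4 of 5 fibroblast, 3 of 5 immune and 2 of 3 endothelial genes were below 1 FPKM in every library, and the fibroblast genes DCN and PDGFRA were listed at 0 in all 6. Their summed levels were 2.31 to 2.63 FPKM with metformin and 1.43 to 2.05 FPKM with PBS for fibroblast genes, and 4.15 to 5.19 FPKM with metformin and 5.18 to 6.47 FPKM with PBS for immune genes. Endothelial genes summed to 2.0 to 2.32 FPKM with metformin and 5.93 to 6.87 FPKM with PBS. The part of these marker differences in the results that follow was not tested. In bulk RNA a lower share of cells that make a transcript and less of that transcript per cell cannot be told apart.

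The proteasome degrades proteins tagged with ubiquitin. Its 20S core is a barrel of stacked alpha and beta rings with the proteolytic sites inside, and the 19S particle on its ends recognises, unfolds and feeds in the substrates. Interferon exchanges the catalytic beta subunits for the immunoproteasome forms PSMB8, PSMB9 and PSMB10, which favour peptides that fit MHC class I. When proteasome activity is short, the transcription factor NFE2L1 is known to raise the subunit genes together through antioxidant response elements in their promoters.

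Promoter windows were available in RefSeq (GRCh38.p14) for 43 of the 49 genes, each running from 250 bases before to 50 bases after a transcription start. The core of the antioxidant response element, TGACNNNGC on either strand, stood in the windows of 15 of the 43 genes (34.9%), against 16.1% of the 27305 genes with a window. Among the genes with a window, 11 of 30 that were lower with metformin held it, as did 4 of the other 11 tested. CCAAT, the letters bound by NF-Y, stood in 21 of 43 (48.8%), against 39.7% of all genes. A match of letters is not a measured binding site, and genes with more than 1 window have more chances of a match. The 27305 genes are all those with a window, tested here or not. They were not matched to the proteasome genes by level or base composition, and the part of these in the shares was not tested. Matches of the different motifs overlapped 0 times. The 250 bases before the start of PSMB3 and of PSMD3 are shown because both genes hold both motifs and both were among the 10 genes with the lowest ratio of metformin to PBS. Capitals mark TGACNNNGC and CCAAT on either strand, and ATTGG is CCAAT read on the other strand. Both windows are on the plus strand, PSMB3 at chr17:38752491-38752740 and PSMD3 at chr17:39980557-39980806.
PSMB3: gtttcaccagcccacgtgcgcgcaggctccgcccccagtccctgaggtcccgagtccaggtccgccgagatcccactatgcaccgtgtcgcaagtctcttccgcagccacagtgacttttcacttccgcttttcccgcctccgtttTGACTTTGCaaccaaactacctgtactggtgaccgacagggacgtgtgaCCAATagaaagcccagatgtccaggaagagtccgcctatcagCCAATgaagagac
PSMD3: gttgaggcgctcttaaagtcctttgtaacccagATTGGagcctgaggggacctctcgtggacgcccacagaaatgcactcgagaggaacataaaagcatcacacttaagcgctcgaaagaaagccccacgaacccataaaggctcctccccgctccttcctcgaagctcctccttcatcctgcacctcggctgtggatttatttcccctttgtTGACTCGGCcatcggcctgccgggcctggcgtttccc

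The interferon-stimulated response element core, GAAA followed by any 2 bases and GAAA, was also searched on both strands, since interferon is known to induce the immunoproteasome and the activator genes PSME1 and PSME2. It stood in 7 of 43 proteasome genes (16.3%), against 4.38% of all genes. In PSMB10, PSMB8, PSME1, PSME2 and PSMG4 the 10 letters were identical, GAAAGCGAAA. These letters were picked as the most frequent match among the proteasome genes. Of the 27305 genes, 34 hold them (0.125%), these 5 included, and that share is therefore no independent measure. TTCCNGGAA, a strict form of the gamma-activated site, stood in 0 of 43 genes and in 1.44% of all genes. At so low a share, 0 of 43 cannot be set apart from the background. Looser forms of the site were not searched. The 5 identical matches are shown with 10 bases on either side, because their letters are the same. Capitals mark the match, and each is read in the direction of the motif. For PSMB10 this is chr16:67936852-67936881 on the minus strand, for PSMB8 chr6:32844032-32844061 on the plus strand, for PSME1 chr14:24136189-24136218 on the minus strand, for PSME2 chr14:24146619-24146648 on the minus strand and for PSMG4 chr6:3258904-3258933 on the plus strand.
PSMB10: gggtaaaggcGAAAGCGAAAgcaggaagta
PSMB8: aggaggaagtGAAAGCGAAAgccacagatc
PSME1: accgcgaaggGAAAGCGAAAgcggtagggc
PSME2: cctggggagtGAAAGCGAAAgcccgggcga
PSMG4: ttccggggccGAAAGCGAAAgcgcgctcgg

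Most proteasome genes were lower with metformin. A gene was called when its adjusted p was below 0.05 in limma's moderated test on log2(FPKM + 1), adjusted by Benjamini-Hochberg over all 13437 tested genes. Of the 47 tested proteasome genes, 33 fell (70.2%) and 2 rose (4.26%), whereas of all tested genes 25.2% were called lower and 31.0% higher. The median log2 change of the 47 was -0.39, against a median of 0.06 over all tested genes. The median of their ratios of mean FPKM, metformin to PBS, was 0.755, against 1.05 over all tested genes. The falls were moderate in size. A fall of at least 0.5 on the log2 scale was called in 17 of 47 (36.2%), against 15.0% of all tested genes, and a fall of at least 1 in 2 of 47 (4.26%), against 4.74%. For 34 of 47 (72.3%) every metformin library lay below every PBS library, against 28.7% of all tested genes, and for 2 every metformin library lay above every PBS library, against 35.7%. Of the 33 calls, 27 held in each of the 17 alternative fits tried, and neither of the 2 rises did.

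**Figure D1:**
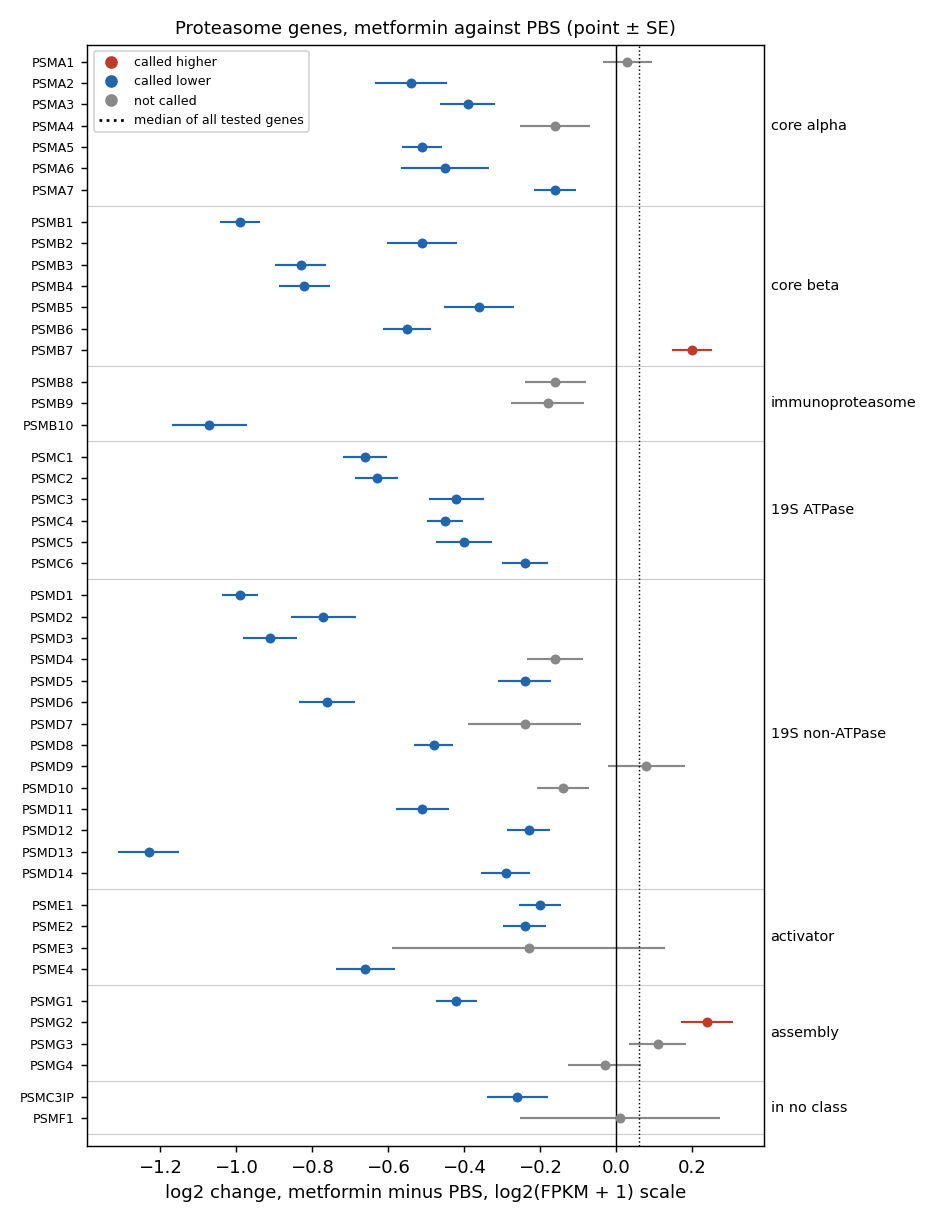
The log2 change (metformin minus PBS) of each tested proteasome gene is plotted with its standard error, grouped by class and coloured by call, with the median of all tested genes as a dotted line. Core beta and 19S genes lie left of 0 with the exceptions of PSMB7 (0.20) and PSMD9 (0.08), and the 4 assembly genes lie on both sides.

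Summed over all 49 genes, the proteasome transcripts took 1692.6, 1693.8 and 1617.9 FPKM in the metformin libraries and 2145.5, 2279.8 and 2150.6 FPKM in the PBS libraries. All metformin sums were below all PBS sums, and the mean was 23.9% lower. As a share of each library's FPKM sum this was 0.836%, 0.835% and 0.806% with metformin and 1.05%, 1.09% and 1.05% with PBS. The class sums separated the groups in the same direction for every class but assembly. The ratio of the mean sums was 0.686 for the 19S non-ATPase genes, 0.716 for the 19S ATPases, 0.722 for the core beta genes and 0.788 for the immunoproteasome genes. It was 0.848 for the activators and 0.855 for the core alpha genes. The assembly factors summed to 64.4 ± 0.604 FPKM with metformin and 64.2 ± 3.45 FPKM with PBS (SD, n = 3 each), and their libraries overlapped.

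**Figure D2:**
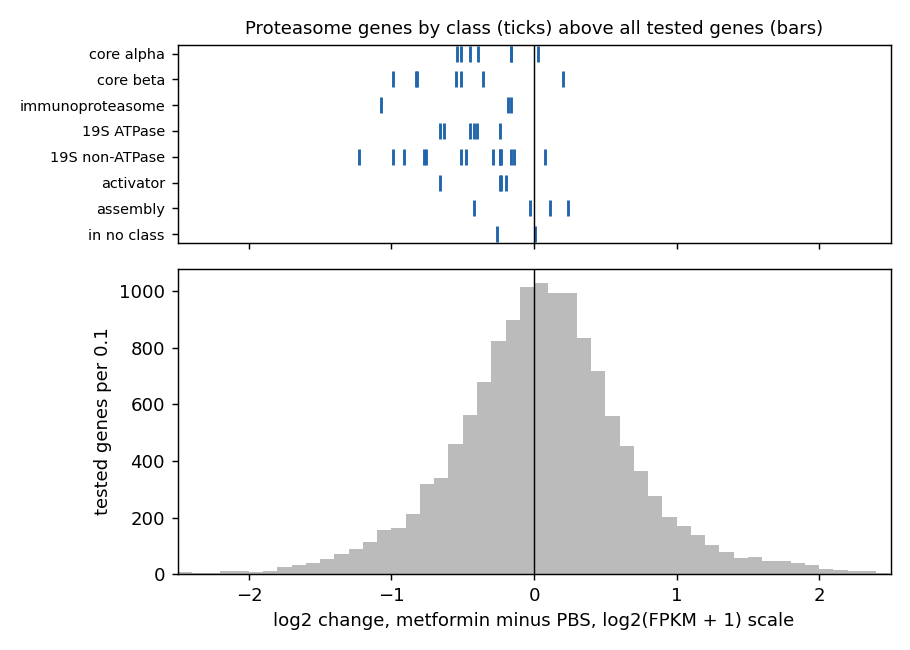
Ticks in the upper panel give the log2 change (metformin minus PBS) of each tested proteasome gene by class, and bars in the lower panel count all 13437 tested genes in bins of 0.1. The ticks of the core and 19S classes lie mostly left of 0, with a median of -0.39 over the 47 genes, while all genes have a median of 0.06.

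**Figure D3:**
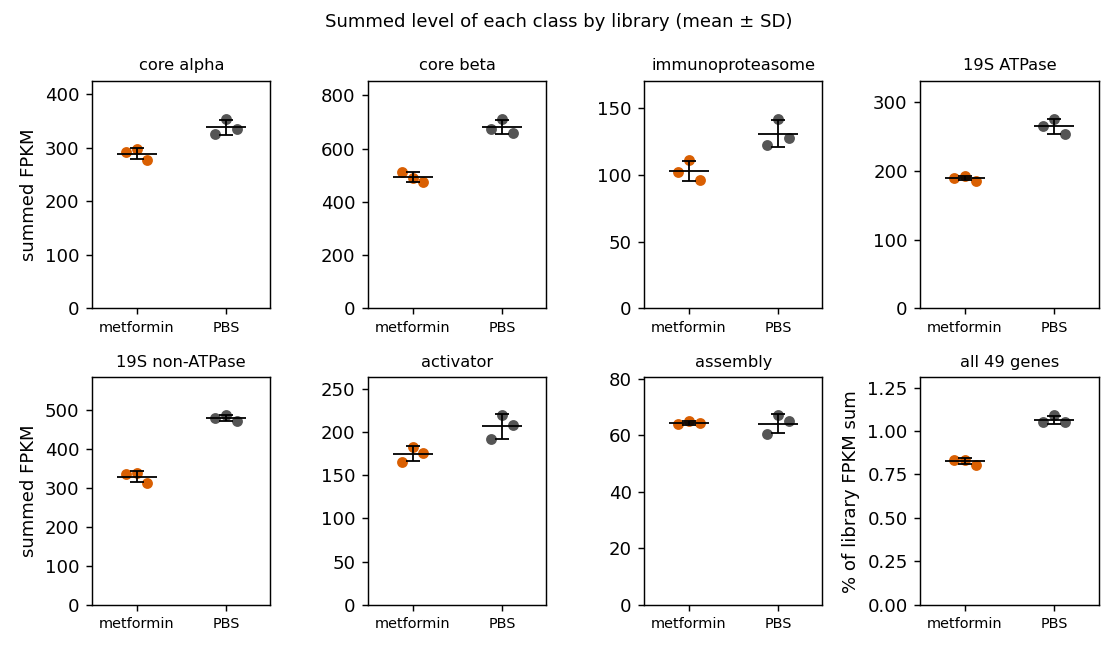
Points give the summed FPKM of each class in each library, with the mean and SD of 3 libraries, and the last panel gives all 49 genes as a percentage of the library's FPKM sum. The metformin points lie below the PBS points in every panel except assembly.

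The alpha subunits form the outer rings of the core and its gate. Of the 7, 5 fell and 2 were not called, against 25.2% of all tested genes called lower. The median log2 change of the 7 was -0.39, and -0.16 without PSMA2 and PSMA6, which share exon bases with other genes. PSMA5 had the tightest metformin values, at 17.6, 17.4 and 17.3 FPKM with metformin and 24.3, 26.4 and 25.3 FPKM with PBS. The groups lay far apart relative to their spread, and the log2 change was -0.51 ± 0.05 (SE; limma adjusted p = 0.000273). PSMA2 was at 21.8, 23.9 and 18.4 FPKM with metformin and at 30.4, 31.1 and 32.4 FPKM with PBS, a log2 change of -0.54 (limma adjusted p = 0.00295). Its metformin libraries were all lower and spread more widely than its PBS libraries. PSMA2 shares 19.5% of its exon bases with the pseudogene AC010132.2 on the opposite strand, at 0.708 FPKM with metformin and 1.35 FPKM with PBS. PSMA6 held 15.1, 12.5 and 12.2 FPKM with metformin and 19.2, 20.5 and 15.9 FPKM with PBS, a log2 change of -0.45 (limma adjusted p = 0.0155). Metformin replicate 1 and PBS replicate 3 of PSMA6 came close to each other without overlap, and its call was lost without metformin replicate 2 or without metformin replicate 3, with limma adjusted p between 0.00744 and 0.051 over its alternatives. PSMA3 fell to 0.755 of the PBS mean. PSMA6 shares 14.1% of its exon bases with AL121594.1 on the same strand.

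PSMA7, the most abundant alpha gene, held 126.6, 138.9 and 124.6 FPKM with metformin and 142.1, 151.1 and 143.2 FPKM with PBS. The groups were separate, but the difference was small, with a log2 change of -0.16 (limma adjusted p = 0.0428). Its call was lost in 9 of 17 alternatives, among them leaving out any library other than metformin replicate 2, and over the 17 the log2 change ran between -0.22 and -0.04 and the limma adjusted p between 0.0137 and 0.454. PSMA1 had 59.7, 56.8 and 57.4 FPKM with metformin and 52.2, 60.6 and 57.7 FPKM with PBS. These ranges overlapped, and the log2 change was 0.03 (limma adjusted p = 0.71). PSMA4 also overlapped, with a log2 change of -0.16 (limma adjusted p = 0.177). Subunits of the same ring, present in equal numbers in the particle, therefore had ratios of metformin to PBS between 0.682 (PSMA2) and 1.02 (PSMA1).

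Of the 7 constitutive beta subunits, which form the inner rings, 6 fell and 1 rose. Of all tested genes, 25.2% were called lower and 31.0% higher. The median log2 change of the 7 was -0.55. The 4 without a catalytic site, PSMB1 to PSMB4, all fell, with a median ratio of 0.56. PSMB1 (chr6:170535117-170553341, minus strand) was at 60.0, 62.3 and 55.7 FPKM with metformin and at 116.5, 120.2 and 119.4 FPKM with PBS. Metformin libraries held 0.5 times the PBS mean, with a change of -0.99 ± 0.05 on the log2 scale (SE; limma adjusted p = 1.87e-05). PSMB3 (chr17:38752736-38764231, plus strand) had 58.5, 60.1 and 57.8 FPKM with metformin and 105.2, 114.9 and 96.8 FPKM with PBS. PSMB4 had 58.1, 60.7 and 62.5 FPKM with metformin and 102.4, 117.3 and 102.9 FPKM with PBS. In both genes the PBS libraries differed more among themselves than the metformin libraries, and all of them were higher; the log2 changes were -0.83 and -0.82. PSMB2 fell less, by 0.51 on the log2 scale (limma adjusted p = 0.00348). PSMB1, PSMB3 and PSMB4 averaged 59.4, 58.8 and 60.5 FPKM with metformin, levels that did not differ beyond their spread, against 118.7, 105.6 and 107.5 FPKM with PBS.

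The 3 constitutive catalytic subunits did not move together. PSMB5, which carries the chymotrypsin-like site, held 69.3, 55.5 and 56.2 FPKM with metformin and 78.1, 79.9 and 73.4 FPKM with PBS. Metformin replicate 1 was closer to the PBS libraries than the other two, and the log2 change was -0.36 ± 0.09 (SE; limma adjusted p = 0.015). PSMB6, with the caspase-like site, held 50.1, 47.1 and 43.5 FPKM with metformin and 67.2, 70.5 and 70.0 FPKM with PBS, a log2 change of -0.55 (limma adjusted p = 0.00038). PSMB7 (chr9:124353466-124415444, minus strand), with the trypsin-like site, held 172.9, 164.0 and 156.6 FPKM with metformin and 138.3, 148.4 and 143.3 FPKM with PBS. It was the one core gene called higher, with a ratio of 1.15 and a change of 0.20 ± 0.05 on the log2 scale (SE; limma adjusted p = 0.0163), a change that 60.4% of all tested genes lay below. The call of PSMB7 was lost under median-of-ratios scaling, without metformin replicate 1 and without PBS replicate 1, and over its 17 alternatives the log2 change stayed between 0.14 and 0.33 and the limma adjusted p between 0.000354 and 0.0632.

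PSMB7 and PSMA7 were the most abundant proteasome transcripts. With metformin the lowest PSMB7 library, 156.6 FPKM, was above the highest PSMA7 library, 138.9 FPKM. With PBS the ranges of the 2 genes overlapped, at means of 143.3 FPKM for PSMB7 and 145.5 FPKM for PSMA7. The level of PSMB1 moved away from that of PSMB7: these core beta genes, whose proteins are present in equal number in the core, averaged 59.4 FPKM (PSMB1) and 164.5 FPKM (PSMB7) with metformin, against 118.7 FPKM (PSMB1) and 143.3 FPKM (PSMB7) with PBS.

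Of the 3 immunoproteasome subunits, 1 fell and 2 were not called, a count too small to set apart from the 25.2% of all tested genes called lower. PSMB10 (chr16:67934502-67937087, minus strand), the counterpart of PSMB7, held 14.9, 13.1 and 14.0 FPKM with metformin and 26.6, 33.7 and 31.7 FPKM with PBS. The highest metformin library was well below the lowest PBS library, the mean was 54.4% lower, and the log2 change was -1.07 ± 0.10 (SE; limma adjusted p = 0.000157). Of all tested genes, 4.0% had a lower change. PSMB10 shares 34.8% of its exon bases with AC040162.1 on the same strand, a gene at 1.85 FPKM with metformin and 1.27 FPKM with PBS. PSMB8 (chr6:32840717-32844703, minus strand), the counterpart of PSMB5, held 64.2, 69.4 and 58.7 FPKM with metformin and 69.6, 77.9 and 67.9 FPKM with PBS. PSMB9 (chr6:32844136-32859585, plus strand), the counterpart of PSMB6, held 23.6, 28.5 and 23.3 FPKM with metformin and 26.3, 30.5 and 28.5 FPKM with PBS. In both the groups overlapped, and the log2 changes of -0.16 for PSMB8 (limma adjusted p = 0.127) and -0.18 for PSMB9 (limma adjusted p = 0.159) were not called. PSMB8 was called lower in 1 of 17 alternatives (the replicate block) and PSMB9 in 1 (without metformin replicate 2), and over the alternatives the limma adjusted p lay between 0.0453 and 0.336 for PSMB8 and between 0.0323 and 0.361 for PSMB9. The authors' use of strand in counting is not given in the sources used here. PSMB8 shares 20.6% of its exon bases with PSMB8-AS1, an antisense RNA at 14.6 FPKM with metformin and 8.31 FPKM with PBS. Whether reads of the 2 were told apart there is therefore not known. PSMB9 shares 5.66% of its exon bases with PSMB8-AS1 on the same strand.

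Each immunoproteasome subunit was set over the constitutive subunit it replaces. PSMB10 over PSMB7 was 0.0862, 0.0799 and 0.0891 in metformin libraries and 0.192, 0.227 and 0.221 in PBS libraries. The 2 genes moved apart, and the mean ratio with metformin was 0.398 times that with PBS. PSMB9 over PSMB6 differed the other way, at 0.47, 0.605 and 0.535 with metformin and 0.392, 0.432 and 0.407 with PBS, with no overlap. PSMB8 over PSMB5 was 0.926, 1.25 and 1.04 with metformin and 0.891, 0.975 and 0.925 with PBS, and these ranges overlapped. The 3 pairs therefore showed no common shift between constitutive and immunoproteasome transcripts. PSMB10, called lower, and PSMB8, not called, hold the same 10 letters GAAAGCGAAA shown above; whether the changes of these genes differ was not tested.

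**Figure D4:**
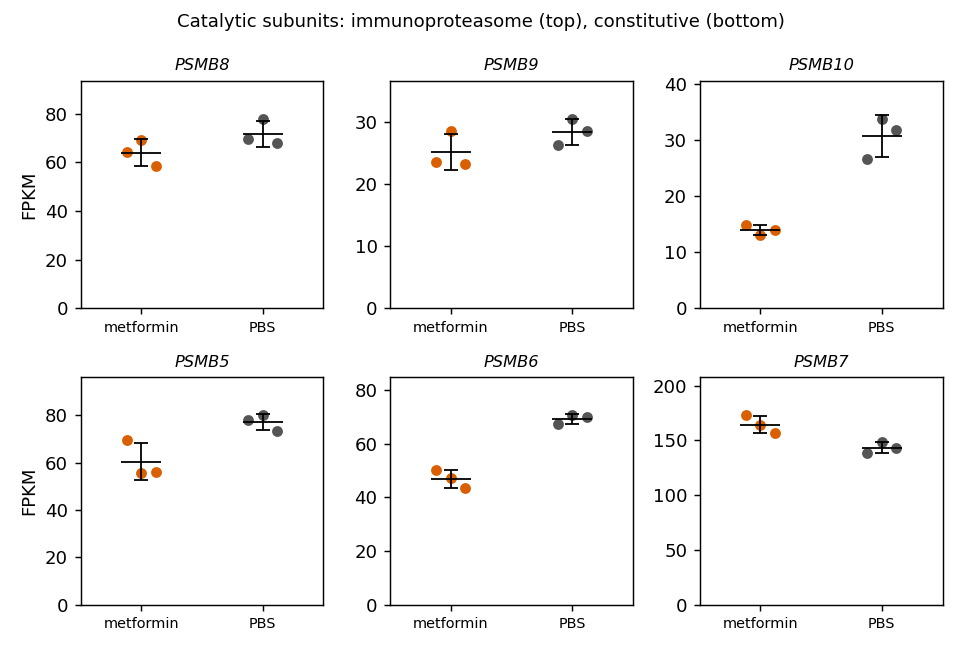
FPKM of the 3 immunoproteasome subunits (top) and of the constitutive subunit each replaces (bottom) in each library, with the mean and SD of 3 libraries per group. The metformin points of PSMB10 (13.1 to 14.9) lie below its PBS points (26.6 to 33.7), those of PSMB7 lie above its PBS points, and those of PSMB8 and PSMB9 overlap them.

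The 6 ATPases of the 19S base, PSMC1 to PSMC6, form the ring that unfolds the substrate. All 6 fell, against 25.2% of all tested genes called lower. Their median log2 change was -0.43, and their ratios lay between 0.614 and 0.839. PSMC1 held 12.1, 12.5 and 12.3 FPKM with metformin and 20.2, 18.9 and 21.0 FPKM with PBS, a change of -0.66 ± 0.06 on the log2 scale (SE; limma adjusted p = 0.000139). PSMC2 held 34.7, 36.8 and 34.7 FPKM with metformin and 53.2, 58.9 and 54.2 FPKM with PBS, a log2 change of -0.63 (limma adjusted p = 0.000155). PSMC4 held 40.5, 39.9 and 42.1 FPKM with metformin and 55.2, 57.9 and 54.8 FPKM with PBS, a log2 change of -0.45 (limma adjusted p = 0.000327). In these 3 genes the metformin libraries lay close together and well below the PBS libraries. PSMC6 differed least, at 14.3, 13.0 and 13.7 FPKM with metformin and 15.8, 16.2 and 17.0 FPKM with PBS, still without overlap and with a log2 change of -0.24 (limma adjusted p = 0.0145). PSMC3 fell to 0.744 and PSMC5 to 0.748 of the PBS mean. PSMC1 shares 75.8% of its exon bases with NRDE2 on the opposite strand, a gene at 0.958 FPKM with metformin and 1.46 FPKM with PBS. PSMC5 shares 19.5% with FTSJ3 on the opposite strand, at 17.8 FPKM with metformin and 18.1 FPKM with PBS. The part of FTSJ3 reads in the PSMC5 value was not tested. The mean FPKM of the 6 ATPases was set over that of the 7 alpha subunits. This ratio was 0.759, 0.755 and 0.782 with metformin and 0.951, 0.91 and 0.883 with PBS, lower in every metformin library. Mean FPKM weighs abundant genes such as PSMA7 most. The median log2 changes of the classes were close, at -0.43 for the ATPases and -0.39 for the alpha genes.

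Of the 14 non-ATPase genes of the 19S particle, 10 fell and 4 were not called, against 25.2% of all tested genes called lower. Their median log2 change was -0.39, with a range between -1.23 and 0.08. PSMD13 (chr11:236546-252984, plus strand), a subunit of the lid, had the lowest ratio of the 47 genes. It held 10.7, 10.6 and 10.4 FPKM with metformin and 26.0, 28.9 and 23.4 FPKM with PBS. The metformin libraries had an SD of 0.147 FPKM, the mean was 59.6% lower, and the log2 change was -1.23 ± 0.08 (SE; limma adjusted p = 4.07e-05). Of all tested genes, 2.69% had a lower change. It shares 6.63% of its exon bases with SIRT3, at 2.4 FPKM with metformin and 2.32 FPKM with PBS.

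The large scaffold subunits of the 19S base, PSMD1 and PSMD2, both fell. PSMD1 (chr2:231056864-231172827, plus strand) held 22.2, 21.2 and 21.1 FPKM with metformin and 44.2, 43.8 and 43.1 FPKM with PBS. Both groups were tight, with a ratio of 0.492 and a change of -0.99 ± 0.05 (SE) on the log2 scale. Its p was the smallest of the 47 genes (limma adjusted p = 1.16e-05). PSMD2 held 51.3, 54.4 and 46.0 FPKM with metformin and 95.4, 82.6 and 82.6 FPKM with PBS, a log2 change of -0.77 (limma adjusted p = 0.000359). Among the structural subunits of the lid, PSMD3 (chr17:39980797-39997960, plus strand) held 24.7, 25.1 and 28.0 FPKM with metformin and 46.9, 49 and 52.9 FPKM with PBS, a log2 change of -0.91 (limma adjusted p = 8.06e-05). PSMD6 was the least abundant of the falling genes, at 3.42, 3.56 and 3.69 FPKM with metformin and 6.66, 6.3 and 7.17 FPKM with PBS. Its ratio of 0.53 was close to that of PSMD3, 0.523. PSMD8, PSMD11 and PSMD12 fell to 0.709, 0.695 and 0.844 of the PBS mean. All of these are lid subunits, and PSMD12 had the ratio closest to 1 among them.

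Other non-ATPase subunits handle ubiquitin. PSMD14, the deubiquitinase that removes ubiquitin chains before entry, held 17.3, 17.2 and 15.7 FPKM with metformin and 19.8, 20.4 and 21.7 FPKM with PBS, a log2 change of -0.29 (limma adjusted p = 0.0082). Its dimer partner PSMD7 held 42.5, 43.9 and 32.2 FPKM with metformin and 42.5, 55.2 and 42.6 FPKM with PBS and was not called (limma adjusted p = 0.213). One library in each group stood apart for PSMD7, metformin replicate 3 and PBS replicate 2, and it shares 30.7% of its exon bases with AC009120.2 on the opposite strand. PSMD4, a receptor for ubiquitin chains, held 48.7, 48.7 and 41.4 FPKM with metformin and 51.0, 53.3 and 51.2 FPKM with PBS. The PSMD4 groups did not overlap, but the log2 change of -0.16 was not called (limma adjusted p = 0.0949, and between 0.0342 and 0.214 over its alternatives).

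PSMD5, PSMD9 and PSMD10 are chaperones that assemble the 19S base and leave before the particle is complete. PSMD5 fell, with a log2 change of -0.24 (limma adjusted p = 0.0223), and PSMD9 and PSMD10 were not called. The call of PSMD5 was lost under quantile normalization, without PBS replicate 1 and without PBS replicate 3, with limma adjusted p between 0.0101 and 0.0676 over its alternatives. PSMD9 held 3.67, 3.61 and 3.87 FPKM with metformin and 3.54, 3.97 and 2.95 FPKM with PBS, overlapping, with a log2 change of 0.08. PSMD10, also known as gankyrin, held 12.6, 13.6 and 12.2 FPKM with metformin and 14.3, 13.3 and 14.9 FPKM with PBS, with a log2 change of -0.14 (limma adjusted p = 0.137). The median of these 3 was -0.14, and that of the 11 other non-ATPase genes was -0.51. Of these 11, 9 fell, against 25.2% of all tested genes called lower. The difference between these medians was not tested.

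The activators are caps that can replace the 19S particle. Of the 4, 3 fell, a number too small to read against the 25.2% of all tested genes called lower. PSME4, which encodes the PA200 cap, held 7.8, 7.28 and 8.7 FPKM with metformin and 13.3, 12.4 and 13.4 FPKM with PBS, a ratio of 0.608 and a change of -0.66 ± 0.08 on the log2 scale (SE; limma adjusted p = 0.000488). PSME1 and PSME2 encode the interferon-inducible PA28 cap and are neighbours on chromosome 14. PSME1 (chr14:24136158-24138967, plus strand) held 111.5, 115.7 and 108.2 FPKM with metformin and 123.3, 137.2 and 125.3 FPKM with PBS. PSME2 (chr14:24143362-24147570, minus strand) held 36.3, 38.0 and 35.6 FPKM with metformin and 41.1, 45.6 and 43.5 FPKM with PBS. Both were lower in every metformin library by similar proportions, with ratios of 0.87 for PSME1 and 0.845 for PSME2. Their log2 changes were -0.20 and -0.24 (limma adjusted p = 0.02 and 0.011). The call of PSME1 was lost in 5 of 17 alternatives and that of PSME2 in 1, with limma adjusted p of up to 0.331 and 0.0631, both under quantile normalization. Leaving out metformin replicate 1 or metformin replicate 3 ended the call of PSME1.

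PSME3, a nuclear activator, could not be resolved. It held 9.99, 22.1 and 23.5 FPKM with metformin and 13.7, 24.1 and 26.0 FPKM with PBS. Replicate 1 was the lowest library in both groups, and the log2 change was -0.23 ± 0.36 (SE; limma adjusted p = 0.612). PSMF1, known as an inhibitor of the core in vitro and placed in no class, also varied within a group, with metformin replicate 2 far below the other two. It held 20.0, 10.4 and 22.5 FPKM with metformin and 18.4, 14.8 and 17.3 FPKM with PBS, with a change of 0.01 ± 0.26 on the log2 scale (SE; limma adjusted p = 0.986).

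The assembly chaperones of the core moved in different directions. PSMG1 and PSMG2 act as a heterodimer in building the alpha ring. PSMG1 held 13.6, 14.2 and 14.1 FPKM with metformin and 18.9, 19.6 and 18.4 FPKM with PBS, a change of -0.42 ± 0.05 on the log2 scale (SE; limma adjusted p = 0.000752). PSMG2 (chr18:12658043-12725740, plus strand) held 20.4, 19 and 19.9 FPKM with metformin and 15.3, 17.4 and 17.2 FPKM with PBS, a change of 0.24 ± 0.07 on the log2 scale (SE; limma adjusted p = 0.0233). All metformin libraries were below all PBS libraries for PSMG1 and above them for PSMG2. The call of PSMG2 was lost in 5 of 17 alternatives (median-of-ratios scaling, the replicate block, and without metformin replicate 1, metformin replicate 3 or PBS replicate 1), with limma adjusted p between 0.0135 and 0.0724 and a log2 change between 0.18 and 0.27. PSMG2 shares 13.9% of its exon bases with CEP76, at 2.49 FPKM with metformin and 3.66 FPKM with PBS, and 2.74% with SPIRE1, at 47.0 FPKM with metformin and 17.5 FPKM with PBS, both on the opposite strand. The part of SPIRE1 reads in the PSMG2 value was not tested. The second heterodimer was not called: PSMG3 held 27.1, 29.2 and 27.9 FPKM with metformin and 23.3, 27.3 and 27.1 FPKM with PBS, and PSMG4 held 2.82, 2.67 and 2.39 FPKM with metformin and 2.93, 2.78 and 2.38 FPKM with PBS. Their log2 changes were 0.11 and -0.03 (limma adjusted p = 0.233 and 0.828). PSMG4 shares 13.3% of its exon bases with SLC22A23 on the opposite strand, at 3.66 FPKM with metformin and 4.2 FPKM with PBS. The part of SLC22A23 reads in the PSMG4 value was not tested. POMP, the chaperone of the beta ring, which the symbol pattern does not match, held 110.4, 110.7 and 97.3 FPKM with metformin and 100.9, 112.7 and 106.2 FPKM with PBS and was not called (limma adjusted p = 0.934).

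PSMC3IP matches the symbol pattern but encodes a meiotic recombination factor and no proteasome subunit. It held 9.03, 9.91 and 8.66 FPKM with metformin and 10.8, 10.7 and 12.3 FPKM with PBS, and was called lower (log2 change -0.26, limma adjusted p = 0.0281). This call was lost with the replicate block and without metformin replicate 1, metformin replicate 3 or PBS replicate 3, with limma adjusted p between 0.0133 and 0.0851 over its alternatives. Without PSMC3IP and PSMF1, 32 of the 45 genes in the 7 classes fell (71.1%), 2 rose (4.44%) and 11 were not called. Of all tested genes, 25.2% were called lower and 31.0% higher. PSMC3IP shares 29.9% of its exon bases with MLX on the opposite strand, a gene at 11.9 FPKM with metformin and 18.6 FPKM with PBS. The part of MLX reads in the PSMC3IP value was not tested. Exon bases were shared with another gene in 18 of the 49 genes. Without them fewer proteasome genes were left to count, of which 22 were called lower and 1 higher, against the same shares of all tested genes. None of the 32 pseudogenes named after these genes reached 1 FPKM as a mean over the 6 libraries; the highest, PSMC1P1, averaged 0.774 FPKM with metformin and 1.08 FPKM with PBS.

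Of 13 cofactors that bind the proteasome but have other symbols, 4 fell, 5 rose and 4 were not called, against 25.2% of all tested genes called lower and 31.0% called higher, so that the counts are close to the background. Their median log2 change was -0.01. The 4 that fell were ADRM1, UCHL5, USP14 and UBE3C. ADRM1 is a ubiquitin receptor of the 19S particle and held 93.2, 92.9 and 99.5 FPKM with metformin and 127.2, 131.4 and 122.1 FPKM with PBS. UCHL5, the deubiquitinase bound to ADRM1, held 6.3, 6.32 and 6.29 FPKM with metformin and 10.4, 10.7 and 11.6 FPKM with PBS. USP14, another deubiquitinase of the particle, held 21.8, 21.9 and 22.5 FPKM with metformin and 38.8, 40.2 and 38.3 FPKM with PBS. For these deubiquitinases the ratios were 0.577 for UCHL5 and 0.564 for USP14 (limma adjusted p = 0.000155 and 2.81e-05), lower than the 0.811 of the intrinsic deubiquitinase PSMD14. ZFAND2A, a stress-induced proteasome-binding protein, rose to 24.0, 20.7 and 20.9 FPKM with metformin, against 9.75, 9.44 and 11.2 FPKM with PBS, a log2 change of 1.04 (limma adjusted p = 0.00012). AKIRIN2, which carries proteasomes into the nucleus, rose to 1.56 times the PBS mean (limma adjusted p = 0.000271), and UBLCP1, ZFAND5 and PAAF1 rose to 1.41, 1.37 and 1.31 times.

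Of 4 ubiquitin genes and E1 enzymes, 2 fell and 1 rose, a number too small to read against the background. The polyubiquitin gene UBB held 83.9, 86.8 and 76.6 FPKM with metformin and 110.6, 122.7 and 98.9 FPKM with PBS, a log2 change of -0.42 (limma adjusted p = 0.00648). All its metformin libraries were below all its PBS libraries. UBB shares 28.4% of its exon bases with the antisense gene AC093484.3, itself at 272.1 FPKM with metformin and 354.7 FPKM with PBS. The strand setting is not given, and the part of AC093484.3 reads in the UBB value was not tested. UBA1, the main E1 enzyme, fell to 0.801 of the PBS mean. RPS27A, which encodes ubiquitin fused to a ribosomal protein, rose to 1.28 times the PBS mean. Of 6 ubiquitin shuttle genes, 3 fell (UBQLN1, UBQLN4 and RAD23B) and 2 rose (UBQLN2 and DDI2). This number is also too small to read against the 25.2% lower and 31.0% higher of all tested genes.

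Among 12 genes that regulate proteasome transcription, 2 fell and 5 rose, also close to the background of 25.2% lower and 31.0% higher, with a median log2 change of 0.15. NFE2L1, the factor named above, held 69.7, 68.7 and 68.8 FPKM with metformin and 23.0, 32.7 and 36.3 FPKM with PBS. Its metformin libraries were tight and all above the PBS libraries, with a change of 1.17 ± 0.15 on the log2 scale (SE; limma adjusted p = 0.000798). It shares 3.3% of its exon bases with the antisense gene AC004477.2, itself at 212.4 FPKM with metformin and 65.6 FPKM with PBS. Processing of the NFE2L1 protein is known to need VCP, which extracts it from the endoplasmic reticulum, NGLY1, which removes its glycans, and the protease DDI2. VCP held 52.1, 53.8 and 50.1 FPKM with metformin and 118.9, 117.6 and 118.2 FPKM with PBS, a change of -1.17 ± 0.04 on the log2 scale (SE; limma adjusted p = 4.99e-06). NGLY1 held 3.35, 3.75 and 3.68 FPKM with metformin and 2.7, 2.53 and 2.63 FPKM with PBS, and DDI2 held 11.2, 9.87 and 11.3 FPKM with metformin and 7.35, 6.64 and 7.3 FPKM with PBS. NGLY1 and DDI2 rose, with log2 changes of 0.34 and 0.54 (limma adjusted p = 0.00818 and 0.00113). NFE2L2, the related factor of the oxidative stress response, held 19.8, 19.5 and 18.6 FPKM with metformin and 7.55, 7.92 and 6.71 FPKM with PBS, a log2 change of 1.28 (limma adjusted p = 2.42e-05). NFYA, a subunit of NF-Y, rose to 2.41 times the PBS mean and NFYB fell to 0.777 of it. NFE2L3, another factor of this family, was lower in every metformin library but not called, with a ratio of 0.895 (limma adjusted p = 0.0628). NFYC, FOXM1, STAT3 and NPLOC4 were not called either. The regulator transcripts thus had no common direction. Whether any of their changes bears on the lower subunit transcripts was not tested, and protein and activity were not measured.

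**Figure D5:**
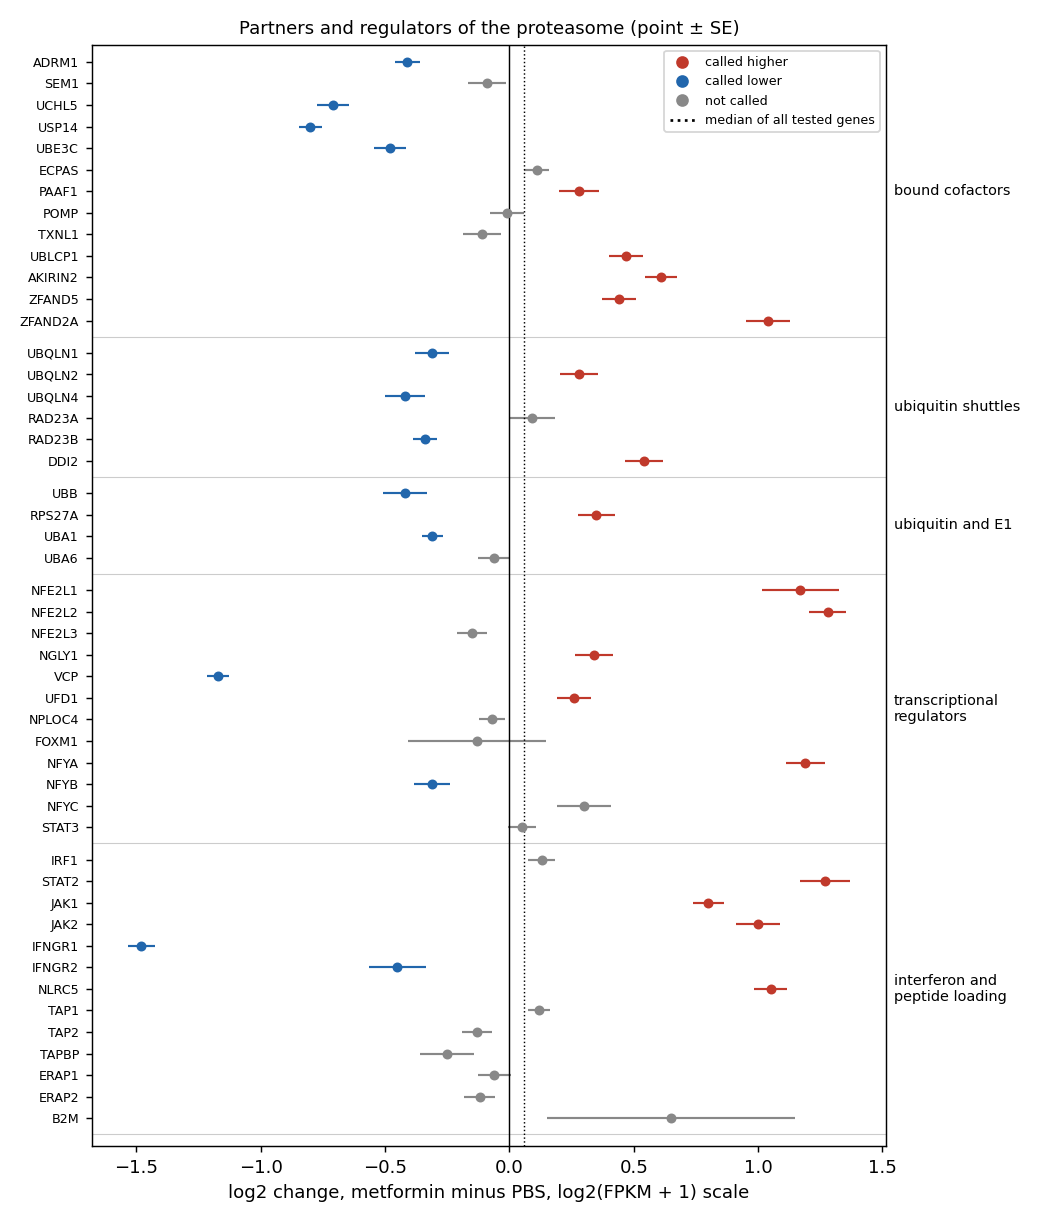
The log2 change (metformin minus PBS) with its standard error of 48 genes that act with the proteasome, by list and coloured by call, with the median of all tested genes as a dotted line. Each list holds genes on both sides of 0. Of the 48, 13 were called lower and 17 higher, close to the 25.2% lower and 31.0% higher of all tested genes.

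Of 13 genes that induce the immunoproteasome or load its peptides, 2 fell, 4 rose and 7 were not called, a count near or below the 25.2% lower and 31.0% higher of all tested genes. The 2 that fell were the receptor chains of interferon gamma. IFNGR1 held 19, 18.8 and 18.8 FPKM with metformin and 55.2, 56.8 and 51.3 FPKM with PBS, a log2 change of -1.48 (limma adjusted p = 4.64e-06), and IFNGR2 fell to 0.719 of the PBS mean. The kinases JAK1 and JAK2 rose to 1.77 and 2.71 times the PBS mean, and STAT2 to 2.5 times. NLRC5, the transactivator of MHC class I genes, held 7.93, 7.72 and 8.36 FPKM with metformin and 3.25, 3.41 and 3.42 FPKM with PBS, a log2 change of 1.05 (limma adjusted p = 3.4e-05). IRF1, a transcription factor through which interferon reaches the immunoproteasome genes, was not called, with a ratio of 1.1. TAP1, the peptide transporter subunit whose gene lies beside PSMB9, held 47.9, 47.6 and 46.3 FPKM with metformin and 44.2, 42.5 and 43.8 FPKM with PBS. These groups did not overlap, and the log2 change of 0.12 was not called (limma adjusted p = 0.0611). TAP1 shares 9.49% of its exon bases with PSMB8-AS1 on the opposite strand, at 14.6 FPKM with metformin and 8.31 FPKM with PBS. The part of PSMB8-AS1 reads in the TAP1 value was not tested.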

How the data were processed

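The deposited tables give FPKM per Ensembl gene, 1 table for each of 6 libraries, computed by the authors; per the submitters' processing notes the build was GRCh38, while aligner, counter and strand setting are not given in the sources used. Identifiers without version were matched to GENCODE 29, which named 57980 of 58243. The 13437 genes averaging 1 FPKM or more were tested on log2(FPKM + 1) with limma 3.58.1 (R 4.3.3), with trend, group as the only term and Benjamini-Hochberg adjustment. A log2 change is therefore on the log2(FPKM + 1) scale and understates changes of low genes. Ratios are of mean FPKM. Read counts were not available, so no interval for counting error is given. The script was tested on simulated data. The proteasome genes, the companion lists and the tests were chosen with earlier results of these data known; 3 genes of the companion lists are not reported here. By the rule for named genes, every library's value is given for the catalytic subunits, PSME, PSMG and genes in no class, and in each other class for the 3 largest log2 changes and the smallest; PSMA7, PSMD2, PSMD4, PSMD6, PSMD7, PSMD10, PSMD14 and the companions shown were added after their values were seen. Exon sharing came from GENCODE 29 with BEDTools 2.31.1 and promoters from RefSeq (GRCh38.p14). Same-numbered libraries did not deviate together (correlations between -0.0105 and 0.0304) and were not treated as pairs. The alternatives were other pseudocounts, level filters, scalings, priors, a replicate block and leaving out each library.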

Additional observations from a re-analysis of the deposited data

How the results depend on the processing

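The number of proteasome genes called lower (33) stayed between 29 and 35 in all fits of the same genes. The number called higher (2) was 0 under median-of-ratios scaling, 1 with the replicate block and 1 without genes that share exon bases, and lay between 0 and 2 when single libraries were left out. Requiring a mean of at least 5 FPKM left 2401 of all genes called higher, against 4169, since fewer genes were tested. Median-of-ratios scaling gave median log2 changes of -0.45 for all proteasome genes, -0.45 for core alpha, -0.44 for 19S non-ATPase and -0.01 for assembly, and quantile normalization -0.32 for all and -0.32 for core alpha. The log2 difference of the summed level was -0.39, and -0.45 and -0.32 under these scalings, and that of PSMB10 over PSMB7 was -1.33, and -1.43 under quantile normalization. The cause of these shifts was not tested. With a mean of at least 5 FPKM the medians were -0.48 for 19S non-ATPase and 0.11 for assembly. With PSMD5, PSMD9 and PSMD10 counted as assembly factors they were -0.51 and -0.03, and without genes that share exon bases they were -0.16 for core alpha and -0.15 for assembly. Leaving out single libraries moved the median of core alpha between -0.43 and -0.33 and that of all genes between -0.42 and -0.34.

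Signs turned in genes that were not called. PSMD9 had -0.01 under quantile normalization, and leaving out single libraries gave -0.01 to 0.15 for PSMD9, -0.5 to 0.14 for PSME3, -0.09 to 0.02 for PSMG4, -0.03 to 0.08 for PSMA1 and -0.19 to 0.33 for PSMF1, on the log2 scale. Under median-of-ratios scaling PSMA1 had -0.03 and PSMF1 -0.05. The replicate block lost the calls of PSMG2 and PSMC3IP, added that of PSMB8 and changed no other call of a proteasome gene. Same-numbered libraries share only a number. Depth could be estimated but counts were not available, so the counting error behind a value is unknown. The largest standard errors were those of PSME3 (0.36) and PSMF1 (0.26).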
